A study of Homo sapiens with 12 samples.

Results

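The 46 genes described here encode the machinery that copies chromosomal DNA in human cells: the factors that license replication origins, the replicative helicase and its activators, the sliding clamp and its loader, the polymerases, and the proteins that finish and protect the fork. They were taken by gene symbol from a table of 58174 genes, and all 46 were found and passed the filter on low values. HCT116, an established human colorectal carcinoma line, was given dolastatin 15, a tubulin-binding peptide first found in a sea hare, or the solvent DMSO alone. Treated cells received 20 nM or 100 nM for 16 h or 24 h, and solvent cells were taken at the same times, so that 6 groups had 2 libraries each. All wells, solvent wells included, held DMSO at 0.25%. The 2 doses of a time were compared with the same 2 solvent libraries, so their changes against solvent are not independent. The labels call the libraries of a group duplicates and do not say whether they came from separate cultures, so every p-value below covers the spread of these libraries alone, and that spread may be technical. By the numbers in the deposited table, libraries 1 and 2 (20 nM), 3 and 4 (100 nM) and 5 and 6 (solvent) are from 16 h. Libraries 7 and 8 (20 nM), 9 and 10 (100 nM) and 11 and 12 (solvent) are from 24 h.

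Replication origins are licensed in late mitosis and G1, when the origin recognition complex, CDC6 and CDT1 load the MCM helicase onto them. Geminin later blocks CDT1 so that no origin is licensed again in the same cycle. The DBF4-dependent kinase CDC7, CDC45 and the GINS complex then turn the loaded helicase into an active one, and polymerases alpha, delta and epsilon copy the strands with the help of RPA, PCNA and its loader RFC. Many of these genes are transcribed under E2F factors as cells pass from G1 into S phase. In bulk RNA, fewer cells of a phase and less RNA per cell cannot be told apart. Drugs of the dolastatin kind are known for arresting cells in mitosis.

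The deposited values are FPKM, a unit per length of transcript and per library, so levels can be set beside each other between genes. Steps of single fragments among low values put the depth at 24300000 to 53000000 fragments per library over the fragment lengths assumed. The sum of FPKM per library was 911720 to 1049886, and mitochondrially encoded genes held 17.9% to 25.8% of it. Of the epithelial markers, EPCAM (251 to 335 FPKM), KRT8 (410 to 458 FPKM), KRT18 and KRT19 were high in each of the 12 libraries. CLDN4 was at 16.9 to 35.8 FPKM, and the adhesion gene CDH1 was lower, at 2.91 to 3.92 FPKM. Summed levels of the markers of other cells were low, with 1.67 to 4.75 FPKM for 6 fibroblast genes. Sums were 0.48 to 1.22 FPKM for 4 leukocyte genes and 0.09 to 0.44 FPKM for 4 endothelial genes. Of the fibroblast genes, COL1A1 was at 1.44 to 4.34 FPKM, a range that takes in that of CDH1. PDGFRB was at 0.21 to 0.48 FPKM, and COL1A2, COL3A1, DCN and LUM were at most 0.13 FPKM.

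The promoters of some of the members named below are shown first, because E2F factors are known to act at promoters of this family. RefSeq promoters (GRCh38.p14) were at hand for 40 of 46 members; those of GINS4, MCM4, MCM5, POLD3, RPA2 and RPA3 were not used here. Each window runs from 160 bases before to 20 bases after a listed transcription start, on the gene's own strand. CDC6 (ENSG00000094804, chr17:40287719-40287898, plus strand) and CLSPN (ENSG00000092853, chr1:35769959-35770138, minus strand) had the lowest log2 changes at 100 nM and 16 h. PCNA (ENSG00000132646, chr20:5126603-5126782, minus strand, 1 of 2 listed starts) had the highest level of all members. MCM6 (ENSG00000076003, chr2:135876424-135876603, minus strand) had 4 matches in this window, which overlap in pairs. GINS3 (ENSG00000181938, chr16:58392311-58392490, plus strand) had the highest log2 change at 24 h. DBF4 (ENSG00000006634, chr7:87876333-87876512, plus strand) was the only member called higher at 16 h. GINS3 and DBF4 were picked for display after their values were seen, and CDC6 and CLSPN are shown for their changes. For PCNA the start with a match to the E2F letters given next was taken, and its other start has none. Other called members without such letters, such as RFC4, RFC2 and ORC1, are not shown. In the first 5 windows, capitals mark E2F letters (TTTCCCGC, TTTCGCGC, TTTGCCGC or TTTGGCGC on either strand). The DBF4 promoter has no E2F letters, and capitals there mark the letters TTTGAA of the cell cycle homology region (CHR), read on the opposite strand.
CDC6: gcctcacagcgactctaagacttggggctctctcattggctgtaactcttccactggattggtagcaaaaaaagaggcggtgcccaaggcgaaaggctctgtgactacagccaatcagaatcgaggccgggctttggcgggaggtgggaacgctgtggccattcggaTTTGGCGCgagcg
CLSPN: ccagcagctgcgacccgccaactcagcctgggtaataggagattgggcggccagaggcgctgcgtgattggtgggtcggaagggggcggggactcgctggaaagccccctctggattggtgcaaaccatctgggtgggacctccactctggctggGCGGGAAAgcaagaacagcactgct
PCNA: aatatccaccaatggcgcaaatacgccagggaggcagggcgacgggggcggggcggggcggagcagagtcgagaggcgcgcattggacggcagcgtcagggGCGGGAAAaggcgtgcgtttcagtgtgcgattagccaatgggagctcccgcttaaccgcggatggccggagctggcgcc
MCM6: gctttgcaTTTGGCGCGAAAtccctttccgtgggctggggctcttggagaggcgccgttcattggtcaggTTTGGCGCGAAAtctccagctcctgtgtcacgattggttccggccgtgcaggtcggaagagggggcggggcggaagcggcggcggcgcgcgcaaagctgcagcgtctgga
GINS3: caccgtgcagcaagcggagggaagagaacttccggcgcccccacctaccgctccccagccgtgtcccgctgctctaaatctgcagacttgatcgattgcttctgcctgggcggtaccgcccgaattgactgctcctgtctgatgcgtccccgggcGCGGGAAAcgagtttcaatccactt
DBF4: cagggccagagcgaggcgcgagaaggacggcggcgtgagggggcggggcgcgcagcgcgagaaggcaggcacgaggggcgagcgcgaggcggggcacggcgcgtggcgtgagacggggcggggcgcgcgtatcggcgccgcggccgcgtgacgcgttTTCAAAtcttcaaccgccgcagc

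Over the full promoters of 300 bases, E2F letters stood in those of 21 of 40 members (52.5%), against 6.98% of 9562 tested genes and 3.99% of 27305 genes with a RefSeq promoter. The CHR letters TTTGAA on either strand were found in 1 of 40 members (2.5%), which is DBF4, against 13.1% of the tested genes. The letters CCAAT on either strand, the site of the factor NF-Y, were found in 24 of 40 members (60%) against 43.4% of the tested genes. Members called lower at 100 nM and 16 h had E2F letters in 12 of 22 promoters (54.5%), and members that did not pass in 9 of 17 (52.9%). Of members whose 20 nM effect differed between the times, 13 of 24 had E2F letters (54.2%), and of the others 8 of 16 (50%). A match of letters is a description of the window and not a mapped site.

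In solvent cells the levels of the 46 members spanned PCNA at the top, with 341 and 332 FPKM at 16 h and 324 and 332 FPKM at 24 h, to ORC2 at the bottom, with 8.54 and 8.55 FPKM at 16 h and 7.62 and 7.5 FPKM at 24 h. MCM7 followed PCNA (247 and 239.9 FPKM at 16 h), and POLD2, an accessory subunit of polymerase delta, came next (176 and 170.0 FPKM at 16 h). The solvent libraries of PCNA, MCM7 and POLD2 did not overlap. CDC7 (10.8 and 12.0 FPKM at 16 h) and POLD3 (15.6 and 15.3 FPKM) were lowest after ORC2. Subunits of 1 complex stood far apart on this per-length scale: MCM6 (59.1 and 57.8 FPKM at 16 h) was far below its helicase partner MCM7, and ORC6 (53.5 and 52.3 FPKM) was far above ORC2. Higher up, MCM5 (122 and 123 FPKM at 16 h) and CDC6 (130.5 and 120.3 FPKM) were neighbours whose libraries overlapped.

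After 16 h of dolastatin 15, replication genes moved mostly one way. With 20 nM, 23 of 46 members fell, 1 rose and 22 did not pass (limma, Benjamini-Hochberg adjusted p under 0.05 over 13458 tested genes; log2 changes below are given ± SE), against 17.7% of all tested genes called, 11% lower and 6.78% higher. With 100 nM, 24 fell, 1 rose and 21 did not pass, against 23.8% of tested genes called, 14.7% lower and 9.16% higher. The members' median log2 change was -0.16 at 20 nM and -0.21 at 100 nM, against -0.02 and -0.03 over all tested genes. CDC6, the origin licensing factor, and CLSPN, the adaptor of the fork checkpoint, had the lowest values at 100 nM, and the regulatory kinase subunit DBF4 was the only member that rose at either dose. Of the lower calls, 15 of 23 at 20 nM and 20 of 24 at 100 nM held without each library in turn and under 3 other scalings. The summed level of the 6 fibroblast markers was 2.59 to 2.99 FPKM at 20 nM and 1.67 to 2.74 FPKM at 100 nM, against 3.84 to 4.35 FPKM in solvent cells, most of it COL1A1, and its part in the result was not tested.

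After 24 h the direction differed. With 20 nM, 18 of 46 members rose, 2 fell and 26 did not pass, against 28.8% of tested genes called, 14.7% higher and 14.1% lower. With 100 nM, 10 rose, 8 fell and 28 did not pass, against 33.8% of tested genes called, 15.4% higher and 18.4% lower, so the 18 of 46 called lie near the share of all genes. The members' median log2 change was 0.12 at 20 nM and 0.02 at 100 nM, against 0.00 and -0.02 over all tested genes. The 24 h split depends on how libraries are scaled. Mitochondrial genes held 23.8% and 25.8% of the FPKM sum at 20 nM and 18.8% and 20.7% at 100 nM, against 17.9% and 18.6% in solvent cells. The FPKM sum itself was 1048249 and 1049886 at 20 nM and 978510 and 989986 at 100 nM, against 911720 and 929715 in solvent cells. The summed fibroblast markers were at 3.48 to 3.62 FPKM at 20 nM and 2.61 to 3.3 FPKM at 100 nM, against 3.98 to 4.75 FPKM in solvent cells. The summed endothelial markers were at 0.34 to 0.44 FPKM at 20 nM and 0.21 to 0.34 FPKM at 100 nM, against 0.11 to 0.17 FPKM in solvent cells. The part of these differences in the results was not tested beyond the scalings given here. With each library rescaled to a common sum, the 20 nM split became 9 higher and 12 lower. Of all genes called under that scaling, 10.8% were higher, against 42.9% of the called members. The members' median moved to -0.06 and that of all tested genes to -0.16. With a common sum over nuclear genes the 20 nM split was 13 and 4, and with median-of-ratios scaling 18 and 3. Of all called genes 33.1% and 50.8% were higher there, against 76.5% and 85.7% of the called members. Relative to the median of all tested genes, the members' median stood 0.12 higher as deposited and 0.10, 0.11 and 0.12 higher under these scalings. At 100 nM the split of 10 and 8 became 6 and 13, 6 and 11, and 14 and 5 under the same 3 scalings. Of all called genes 23.5%, 30.1% and 53.2% were higher under them, against 31.6%, 35.3% and 73.7% of the called members. There the members' median was 0.05 above that of all tested genes as deposited and 0.03, 0.04 and 0.05 above it as rescaled. Against 18 calls at 100 nM with all libraries, 10, 10, 11 and 9 were made without library 9, 10, 11 and 12.

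The rises at 24 h that held under each of the 3 scalings and without each library in turn were those of ORC1, ORC6, CDC6, GMNN, GINS3, RFC2, RFC3, RFC4 and CLSPN at 20 nM, and those of ORC1, ORC6, GMNN, GINS3 and RFC3 at 100 nM. The falls that held in the same way at 100 nM were those of POLA1 and TIMELESS. Other members called at 24 h are given below with what ends their call.

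**Figure D1:**
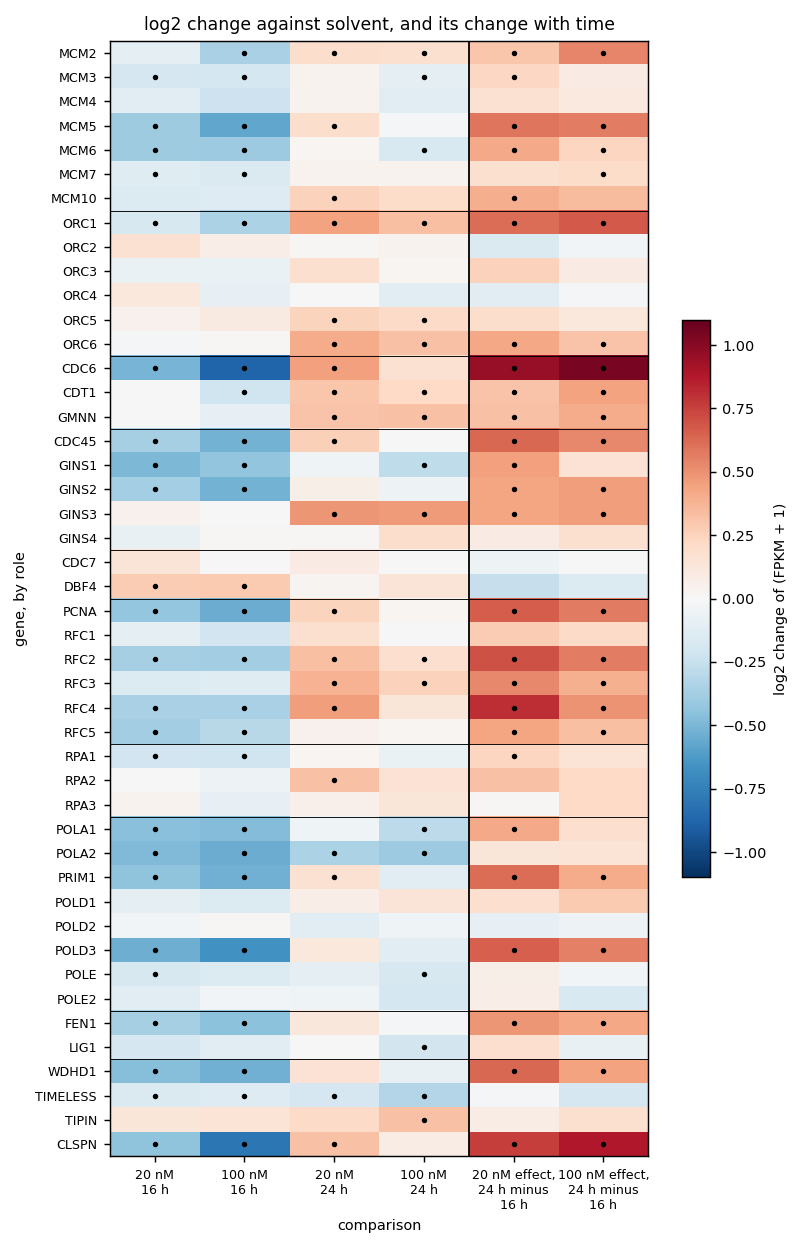
Heat map of log2 changes of FPKM + 1 for the 46 members (down the page, grouped by role) in 4 comparisons with solvent and for the change of each dose's effect between 16 h and 24 h (columns); red is higher, blue is lower, and a dot marks adjusted p under 0.05 (limma). The 16 h columns are mostly blue with 23 and 24 lower calls. The 24 h columns are mixed, with 18 higher and 2 lower calls at 20 nM (9 and 12 under a common sum). At 100 nM and 24 h there are 10 higher and 8 lower calls (6 and 13). Of all genes called at 24 h under a common sum, 10.8% were higher at 20 nM and 23.5% at 100 nM. The marked cells in the last 2 columns are all red.

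The MCM genes are MCM2 to MCM7, which encode the ring of the replicative helicase, and MCM10, which is not part of that ring. At 16 h, 4 of these 7 fell with 20 nM and 5 of 7 with 100 nM. Of all tested genes, 11% and 14.7% were called lower there. MCM6, a subunit of the helicase ring, had 43.8 and 44.7 FPKM at 20 nM, against 59.1 and 57.8 FPKM in solvent cells (log2 change -0.39 ± 0.04, adjusted p = 0.000273). MCM5, another ring subunit, had 81.0 and 83.4 FPKM at 100 nM, against 122 and 123 FPKM in solvent cells (log2 change -0.57 ± 0.05, adjusted p = 0.000111). In both genes the treated libraries lay clear of the solvent libraries. MCM2 fell at 100 nM, with 86.7 and 83.3 FPKM against 107 and 112 FPKM in solvent cells (log2 change -0.36 ± 0.05, adjusted p = 0.000937). Its value at 20 nM did not pass (log2 change -0.11). The falls of MCM3 (-0.19 at 20 nM, -0.20 at 100 nM) and MCM7 (-0.13 and -0.16) were smaller. At 20 nM the MCM3 call was lost without library 1, 2 or 5 (adjusted p 0.0533 to 0.0674). The MCM7 call at 20 nM was lost without library 1, 2, 5 or 6 (adjusted p 0.0687 to 0.194) and under a common sum and median-of-ratios scaling (adjusted p = 0.057 and 0.0826), and at 100 nM without library 4 or 5 (adjusted p 0.0822 to 0.0846).

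At 24 h with 20 nM, MCM2, MCM5 and MCM10 rose as deposited. MCM10, a factor needed for origin firing, had 49.9 and 51.6 FPKM, against 42.0 and 43.0 FPKM in solvent cells (log2 change 0.25 ± 0.07, adjusted p = 0.0324). None of these 3 rises held under a common sum, where MCM2 was at 0.01, MCM5 at 0.01 and MCM10 at 0.07 (adjusted p = 0.905, 0.904 and 0.519). The MCM2 call was also lost without library 8 or 12 (adjusted p 0.0572 to 0.0979). The MCM5 call was lost without library 8, 11 or 12 (adjusted p 0.0556 to 0.11) and the MCM10 call without library 7, 8, 11 or 12 (adjusted p 0.0646 to 0.134). With 100 nM, MCM2 rose, with 115 and 121 FPKM against 108 and 101 FPKM in solvent cells (log2 change 0.17 ± 0.05, adjusted p = 0.021). MCM6 fell, with 50.05 and 51.7 FPKM against 57.9 and 56.5 FPKM in solvent cells (log2 change -0.17 ± 0.04, adjusted p = 0.00915), and so did MCM3 (log2 change -0.11 ± 0.04, adjusted p = 0.0456). The helicase subunits thus had calls in both directions in the same libraries. The MCM2 rise did not pass under a common sum (log2 change 0.08, adjusted p = 0.29) or without library 10 or 12 (adjusted p 0.131 to 0.137). The MCM3 fall did not pass under median-of-ratios scaling (log2 change -0.08, adjusted p = 0.119) or without library 9, 10, 11 or 12 (adjusted p 0.0543 to 0.244). The MCM6 fall did not pass without library 9 or 11 (adjusted p 0.061 to 0.0697).

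Of the origin recognition complex, ORC1 was the only subunit called at 16 h. ORC1, the subunit whose protein level varies over the cycle in human cells, had 20.1 and 19.3 FPKM at 100 nM, against 25.6 and 24.9 FPKM in solvent cells (log2 change -0.35 ± 0.05, adjusted p = 0.00148). At 20 nM it had 22.6 and 21.8 FPKM (log2 change -0.18 ± 0.05, adjusted p = 0.0386). The fall at 20 nM was lost without library 1, 2, 5 or 6 (adjusted p 0.0968 to 0.191), under a common sum (log2 change -0.18, adjusted p = 0.0501) and under median-of-ratios scaling (log2 change -0.15, adjusted p = 0.0665). At 24 h ORC1 had 34.3 and 35.8 FPKM at 20 nM, against 25.0 and 26.2 FPKM in solvent cells (log2 change 0.44 ± 0.05, adjusted p = 0.000461). At 100 nM it had 33.4 and 31.5 FPKM (log2 change 0.33 ± 0.05, adjusted p = 0.00137). The same gene was thus below both solvent libraries at 16 h and above both at 24 h, at each dose. ORC6, which joins the core complex, rose at 24 h, with 65.0 and 65.0 FPKM at 20 nM and 61.9 and 60.5 FPKM at 100 nM, against 47.4 and 50.2 FPKM in solvent cells. The changes were 0.41 (adjusted p = 0.00023) at 20 nM and 0.32 (adjusted p = 0.000491) at 100 nM on the log2 scale. ORC5 rose at both doses as deposited (log2 change 0.25 and 0.21), but not under a common sum (adjusted p = 0.434 and 0.177). Its rise was lost at 20 nM without library 12 (adjusted p = 0.0746) and at 100 nM without library 9 or 12 (adjusted p 0.126 to 0.136). ORC2, ORC3 and ORC4 passed in no comparison with solvent.

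The licensing factor CDC6 had the lowest change of all members at 100 nM and 16 h. It had 69.4 and 66.1 FPKM at 100 nM, against 130.5 and 120.3 FPKM in solvent cells (log2 change -0.88 ± 0.06, adjusted p = 3.58e-05). At 20 nM it had 84.7 and 90.7 FPKM (log2 change -0.51 ± 0.06, adjusted p = 0.00122), and the libraries of both doses lay below solvent. At 24 h it had 176 and 164 FPKM at 20 nM, against 130.4 and 118 FPKM in solvent cells (log2 change 0.45 ± 0.06, adjusted p = 0.00147). At 24 h and 100 nM its 140.0 and 139 FPKM lay above both solvent libraries but did not pass (log2 change 0.17 ± 0.06, adjusted p = 0.0751). CDT1, the partner of CDC6 in loading the helicase, fell at 100 nM and 16 h, with 68.6 and 63.8 FPKM against 81.3 and 73.2 FPKM in solvent cells (log2 change -0.22 ± 0.06, adjusted p = 0.0235), a call lost without library 4 or 5 (adjusted p 0.134 to 0.145). At 20 nM and 16 h it overlapped solvent (log2 change -0.01, 95% confidence interval -0.14 to 0.12). At 24 h CDT1 rose at both doses as deposited, with 103 and 108 FPKM at 20 nM and 96.7 and 101 FPKM at 100 nM, against 84.7 and 85.2 FPKM in solvent cells. Neither rise passed under a common sum (adjusted p = 0.131 and 0.131), and that at 100 nM was lost without library 10, 11 or 12 (adjusted p 0.0675 to 0.102). GMNN, which encodes the CDT1 inhibitor geminin, did not pass at 16 h (log2 change -0.01 at 20 nM and -0.09 at 100 nM). At 24 h GMNN had 110.3 and 106 FPKM at 20 nM and 111 and 106 FPKM at 100 nM, against 85.5 and 88.0 FPKM in solvent cells. On the log2 scale the change was 0.32 (adjusted p = 0.000789) at 20 nM and 0.32 (adjusted p = 0.000547) at 100 nM.

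**Figure D2:**
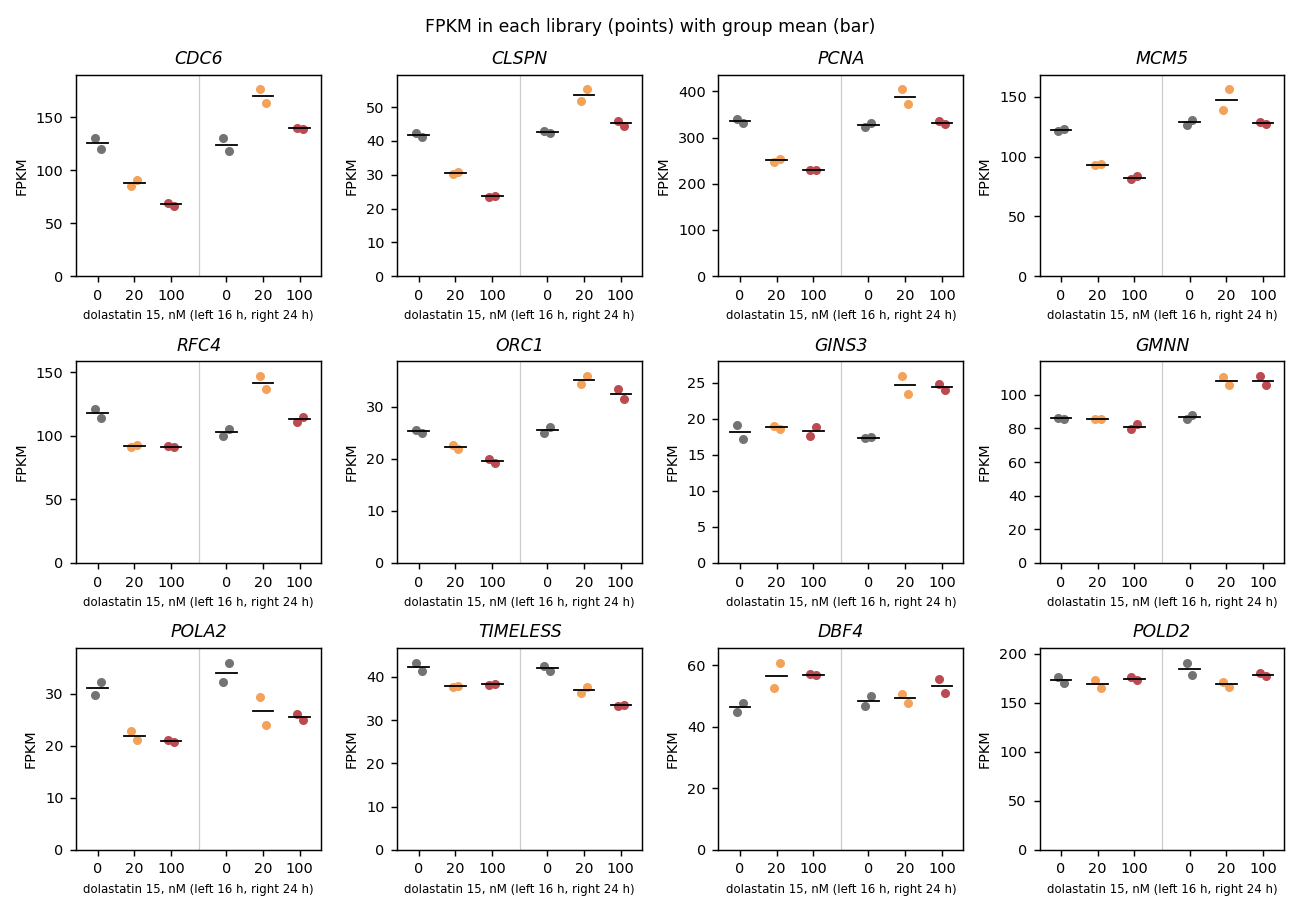
FPKM of 12 members in each library (points, 2 per group) with the group mean (bar), by dose of dolastatin 15 (0 is solvent), at 16 h on the left and 24 h on the right of each panel; each vertical axis starts at 0. CDC6, CLSPN, PCNA, MCM5, RFC4 and ORC1 lie below solvent at 16 h at both doses. GINS3 and GMNN lie above solvent at 24 h at both doses. POLA2 and TIMELESS lie below solvent throughout, and POLD2 passed in none of the 4 comparisons as deposited.

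Of CDC45 and the GINS complex, which complete the active helicase, CDC45, GINS1 and GINS2 fell at 16 h at both doses and GINS3 and GINS4 did not pass. CDC45 had 27.5 and 24.2 FPKM at 100 nM, against 37.0 and 38.0 FPKM in solvent cells (log2 change -0.52 ± 0.07, adjusted p = 0.0008). At 20 nM its call (log2 change -0.37) was lost without library 2 (adjusted p = 0.0575). GINS1 had 15.4 and 14.1 FPKM at 20 nM, against 21.6 and 20.9 FPKM in solvent cells (log2 change -0.50 ± 0.07, adjusted p = 0.00222). GINS2 had a log2 change of -0.37 at 20 nM and -0.52 at 100 nM. GINS3, although its protein sits in the same complex, overlapped solvent at 16 h (0.05 at 20 nM and 0.01 at 100 nM) and had the highest rise of all members at 24 h. It had 25.9 and 23.5 FPKM at 20 nM and 24.8 and 23.9 FPKM at 100 nM, against 17.3 and 17.4 FPKM in solvent cells. This gave a log2 change of 0.48 (adjusted p = 0.00111) at 20 nM and 0.47 (adjusted p = 0.000972) at 100 nM. An antisense gene, AC009118.2, shares 558 exon bases with GINS3 and averaged 2.27 FPKM. The strand setting of the counting is not given in the sources used here. CDC45 rose at 24 h and 20 nM as deposited (log2 change 0.26 ± 0.07, adjusted p = 0.0184), not under a common sum (log2 change 0.08, adjusted p = 0.414) and not without library 8 or 11 (adjusted p 0.0636 to 0.119). GINS1 fell at 24 h and 100 nM, with 16.9 and 16.8 FPKM against 20.7 and 20.6 FPKM in solvent cells (log2 change -0.28 ± 0.07, adjusted p = 0.0174), a call lost without library 9, 10, 11 or 12 (adjusted p 0.0702 to 0.0729). Genes of this 1 complex therefore had a rise (GINS3) and a fall (GINS1) in the same 100 nM libraries at 24 h.

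DBF4, which activates the kinase CDC7 that triggers origin firing, rose at 16 h while the other called members fell. It had 52.6 and 60.7 FPKM at 20 nM and 57.1 and 56.7 FPKM at 100 nM, against 44.9 and 47.9 FPKM in solvent cells. The log2 change came to 0.28 (adjusted p = 0.0308) at 20 nM and 0.29 (adjusted p = 0.0214) at 100 nM. The treated libraries lay above both solvent libraries, but the 20 nM call was lost without library 2, 5 or 6 (adjusted p 0.0641 to 0.182) and the 100 nM call without library 3, 4 or 5 (adjusted p 0.0783 to 0.121). DBF4 shares 142 exon bases with SLC25A40 on the opposite strand, which averaged 11.8 FPKM. At 24 h DBF4 did not pass (log2 change 0.03 and 0.14). CDC7, the kinase itself, did not pass in any of these comparisons, with log2 changes of 0.15 at 20 nM and 0.00 at 100 nM at 16 h.

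The sliding clamp PCNA and 3 of the 5 subunits of its loader fell at 16 h at both doses. Of all tested genes, 11% were called lower at 20 nM and 14.7% at 100 nM. PCNA had 248 and 253 FPKM at 20 nM and 230.2 and 229 FPKM at 100 nM, against 341 and 332 FPKM in solvent cells. The log2 change was -0.42 (adjusted p = 0.000354) at 20 nM and -0.55 (adjusted p = 4.58e-05) at 100 nM. The treated libraries of both doses lay far below both solvent libraries. RFC4, which shares 21 exon bases with EIF4A2 on the opposite strand, had 91.0 and 92.9 FPKM at 20 nM and 92.2 and 90.9 FPKM at 100 nM, against 121 and 114 FPKM in solvent cells. RFC2 (-0.37 at 20 nM and -0.38 at 100 nM) and RFC5 (-0.39 and -0.30) fell as well. RFC1 and RFC3 did not pass at 16 h. At 24 h and 20 nM, RFC4 had 147 and 137 FPKM, against 100.2 and 106 FPKM in solvent cells (log2 change 0.46 ± 0.05, adjusted p = 0.000341). RFC3 had 46.7 and 46.4 FPKM, against 34.6 and 36.4 FPKM in solvent cells (log2 change 0.38 ± 0.05, adjusted p = 0.00063). RFC3 also rose at 100 nM, with 43.0 and 42.2 FPKM (log2 change 0.26 ± 0.05, adjusted p = 0.00337). RFC2 was called in each of the 4 comparisons with solvent. At 24 h it had 93.7 and 94.3 FPKM at 20 nM and 83.9 and 85.0 FPKM at 100 nM, against 71.9 and 76.9 FPKM in solvent cells. On the log2 scale the change was 0.33 (adjusted p = 0.00165) at 20 nM and 0.18 (adjusted p = 0.0214) at 100 nM. The 100 nM rise of RFC2 did not pass under a common sum (log2 change 0.09, adjusted p = 0.161) or without library 9, 10 or 11 (adjusted p 0.0739 to 0.135). PCNA had 404 and 372 FPKM at 24 h and 20 nM, against 324 and 332 FPKM in solvent cells (log2 change 0.24 ± 0.04, adjusted p = 0.00365). That rise did not pass under a common sum (log2 change 0.05, adjusted p = 0.363), and at 100 nM PCNA did not pass as deposited (0.02, 95% confidence interval -0.08 to 0.12).

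Of RPA, which coats single-stranded DNA, the large subunit RPA1 fell at 16 h, with 97.9 and 95.8 FPKM at 20 nM and 98.5 and 94.2 FPKM at 100 nM, against 114 and 110.4 FPKM in solvent cells. This gave a log2 change of -0.21 (adjusted p = 0.0127) at 20 nM and -0.22 (adjusted p = 0.00809) at 100 nM. The calls were lost without library 1, 2 or 5 (adjusted p 0.0546 to 0.0838) at 20 nM and without library 4 or 5 (adjusted p 0.0561 to 0.057) at 100 nM. RPA2, the middle subunit, did not pass at 16 h. At 24 h and 20 nM it had 104 and 116 FPKM, against 87.3 and 87.8 FPKM in solvent cells (log2 change 0.32 ± 0.07, adjusted p = 0.00736), a rise that did not pass under a common sum (log2 change 0.14, adjusted p = 0.131). RPA3, the small subunit, passed in no comparison with solvent.

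Polymerase alpha starts each new strand. POLA2, its regulatory B subunit, fell in each of the 4 comparisons with solvent. At 16 h it had 22.8 and 21.1 FPKM at 20 nM and 21.0 and 20.7 FPKM at 100 nM, against 29.8 and 32.3 FPKM in solvent cells. The log2 change came to -0.48 (adjusted p = 0.00865) at 20 nM and -0.55 (adjusted p = 0.00328) at 100 nM. At 24 h it had 29.3 and 23.9 FPKM at 20 nM and 26.0 and 24.9 FPKM at 100 nM, against 32.3 and 35.8 FPKM in solvent cells. The log2 change was -0.35 (adjusted p = 0.0218) at 20 nM and -0.40 (adjusted p = 0.0099) at 100 nM. In all 4 cases both treated libraries lay below both solvent libraries, and the calls held under the 3 scalings. They were lost at 20 nM and 16 h without library 2 or 6 (adjusted p 0.0582 to 0.0637), at 20 nM and 24 h without library 8 or 12 (adjusted p 0.0988 to 0.127) and at 100 nM and 24 h without library 10 or 12 (adjusted p 0.0581 to 0.0716). POLA1, the catalytic subunit, fell at 16 h (-0.46 at 20 nM and -0.47 at 100 nM) and at 24 h with 100 nM, where it had 14.2 and 14.0 FPKM against 17.4 and 17.6 FPKM in solvent cells (log2 change -0.29 ± 0.06, adjusted p = 0.00728). At 24 h with 20 nM POLA1 did not pass as deposited (-0.05) but did under a common sum (log2 change -0.23, adjusted p = 0.013).

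The primase subunit PRIM1 fell at 16 h (-0.44 at 20 nM and -0.53 at 100 nM) and both doses lay below solvent. It rose at 24 h with 20 nM, with 66.8 and 71.5 FPKM against 58.8 and 63.8 FPKM in solvent cells (log2 change 0.17 ± 0.05, adjusted p = 0.0361). That rise was lost without library 8 or 11 (adjusted p 0.152 to 0.22) and changed sign under a common sum (log2 change -0.01, adjusted p = 0.83). PRIM1 shares 33 exon bases on its own strand with NACA, which averaged 1307 FPKM. Of polymerase delta, the accessory subunit POLD3 had the lowest change of all members at 20 nM and 16 h. POLD3 had 10.1 and 10.5 FPKM at 20 nM and 9.51 and 9.16 FPKM at 100 nM, against 15.6 and 15.3 FPKM in solvent cells. On the log2 scale the change was -0.54 (adjusted p = 0.00119) at 20 nM and -0.67 (adjusted p = 0.000214) at 100 nM. It did not pass at 24 h (0.11 and -0.12). The catalytic subunit POLD1 and the accessory subunit POLD2 passed in no comparison with solvent as deposited. POLD2 had 172 and 166 FPKM at 24 h and 20 nM, against 190.3 and 178 FPKM in solvent cells (adjusted p = 0.0556), and passed as lower under the 3 scalings (log2 change -0.31, adjusted p = 0.00139 under a common sum). POLE, the catalytic subunit of polymerase epsilon, fell at 20 nM and 16 h (log2 change -0.17 ± 0.05, adjusted p = 0.0466) and at 100 nM and 24 h (log2 change -0.18 ± 0.05, adjusted p = 0.0254). The first call was lost without library 1, 2, 5 or 6 (adjusted p 0.0981 to 0.224), and the second without library 9, 10, 11 or 12 (adjusted p 0.0543 to 0.134). Neither held under median-of-ratios scaling (adjusted p = 0.089 and 0.0518).

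FEN1, the flap endonuclease that trims lagging strand fragments, had 83.7 and 86.9 FPKM at 20 nM and 82.4 and 78.1 FPKM at 100 nM at 16 h, against 111 and 109 FPKM in solvent cells. This gave a log2 change of -0.36 (adjusted p = 0.0013) at 20 nM and -0.45 (adjusted p = 0.000249) at 100 nM. It did not pass at 24 h (0.13 and -0.03). LIG1, the ligase that joins those fragments, did not pass at 16 h. It fell to 32.3 and 31.5 FPKM at 100 nM and 24 h, against 37.6 and 35.9 FPKM in solvent cells (log2 change -0.20 ± 0.06, adjusted p = 0.0342). The LIG1 call was lost without library 9, 10, 11 or 12 (adjusted p 0.067 to 0.16) and under median-of-ratios scaling (log2 change -0.17, adjusted p = 0.0627).

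Of the factors that protect the fork, CLSPN, which encodes claspin and carries the checkpoint signal from ATR to CHK1, had 30.1 and 30.9 FPKM at 20 nM and 23.4 and 23.8 FPKM at 100 nM at 16 h, against 42.3 and 41.2 FPKM in solvent cells. The log2 change came to -0.44 (adjusted p = 0.000315) at 20 nM and -0.80 (adjusted p = 6.23e-06) at 100 nM. At 24 h and 20 nM CLSPN had 51.9 and 55.2 FPKM, against 42.8 and 42.4 FPKM in solvent cells (log2 change 0.32 ± 0.04, adjusted p = 0.00102). WDHD1, which ties polymerase alpha to the helicase, had 22.7 and 21.8 FPKM at 20 nM and 16 h, against 30.03 and 32.3 FPKM in solvent cells (log2 change -0.47 ± 0.06, adjusted p = 0.00163), and also fell at 100 nM (-0.53). TIMELESS and TIPIN encode partners in the fork protection complex and had calls of opposite direction at 100 nM and 24 h. TIMELESS fell in each of the 4 comparisons. At 24 h it had 36.2 and 37.6 FPKM at 20 nM and 33.2 and 33.6 FPKM at 100 nM, against 42.6 and 41.4 FPKM in solvent cells. The log2 change was -0.18 (adjusted p = 0.0101) at 20 nM and -0.32 (adjusted p = 0.000547) at 100 nM. At 16 h its changes were smaller (-0.16 at 20 nM and -0.14 at 100 nM). These calls were lost without library 1, 2, 5 or 6 (adjusted p 0.0529 to 0.158) at 20 nM and without library 3, 4, 5 or 6 (adjusted p 0.0597 to 0.189) at 100 nM. Both were lost under median-of-ratios scaling (adjusted p = 0.054 and 0.0891). The 24 h call at 20 nM was lost without library 11 (adjusted p = 0.069). TIPIN rose at 24 h and 100 nM, with 82.7 and 83.9 FPKM against 66.1 and 66.8 FPKM in solvent cells (log2 change 0.32 ± 0.08, adjusted p = 0.0139), a call lost without library 9, 10, 11 or 12 (adjusted p 0.0561 to 0.0652).

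Whether an effect differed between the times was tested directly, as the change of each dose's effect from 16 h to 24 h. At 20 nM the effect was higher at 24 h than at 16 h for 26 of 46 members and lower for 0, against 11.5% of tested genes called, 7.06% higher and 4.46% lower. At 100 nM it was higher for 22 and lower for 0, against 10.2% of tested genes called, 5.87% higher and 4.29% lower. At an unadjusted p under 0.05 (limma), 30 were higher and 1 lower at 20 nM, and 26 higher and 1 lower at 100 nM. The share of all tested genes at that threshold was not counted, here or below. Such counts therefore cannot be set against a background. The doses share solvent libraries here too. The members' median change of effect was 0.32 at 20 nM and 0.23 at 100 nM, against 0.03 and 0.01 over all tested genes. CDC6 changed most, by 0.96 at 20 nM (adjusted p = 0.000998) and 1.05 at 100 nM (adjusted p = 0.000443). At 20 nM RFC4 (0.81) and CLSPN (0.76) followed, and at 100 nM CLSPN (0.88) and ORC1 (0.68). Of these calls, 17 of 26 and 16 of 22 held without each library in turn and under the 3 scalings. Under a common sum the split was 17 higher and 3 lower at 20 nM and 20 higher and 1 lower at 100 nM. Of all genes called under that scaling, 14.1% at 20 nM and 37.7% at 100 nM were higher. The kinase subunits CDC7 and DBF4, the polymerase subunits POLA2 and POLD2, and TIMELESS were among the members that did not pass at either dose.

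The log2 changes of a dose at 16 h and at 24 h share no libraries, and their calls are set side by side here. The calls are not independent, because the spread of each gene was estimated over all 12 libraries. At 20 nM, 9 members fell at 16 h and rose at 24 h (MCM5, ORC1, CDC6, CDC45, PCNA, RFC2, RFC4, PRIM1 and CLSPN), which is 39.1% of the 23 that fell and 50% of the 18 that rose. Over all tested genes 0.736% were called in this way, 6.71% of those that fell and 4.99% of those that rose. At 100 nM, 4 members did so (MCM2, ORC1, CDT1 and RFC2), 16.7% of the 24 that fell and 40% of the 10 that rose, against 0.706% of all tested genes, 4.82% of those that fell and 4.58% of those that rose. Under a common sum only ORC1, CDC6, RFC2, RFC4 and CLSPN of the 20 nM list kept the rise at 24 h, and of the 100 nM list ORC1. The fall of ORC1 at 16 h with 20 nM did not pass under that scaling. RFC2 was itself lower in solvent cells at 24 h (71.9 and 76.9 FPKM) than at 16 h (89.1 and 86.2 FPKM). Its 100 nM libraries at 24 h (83.9 and 85.0 FPKM) lay below both 16 h solvent libraries. A further 9 members rose at 24 h with 20 nM after not passing at 16 h, with GINS3, ORC6 and RFC3 at the top. The share of all tested genes with this pattern was not counted, so the 9 cannot be set against a background. Of all tested genes, 14.7% rose at 24 h with 20 nM, whatever their call at 16 h.

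**Figure D3:**
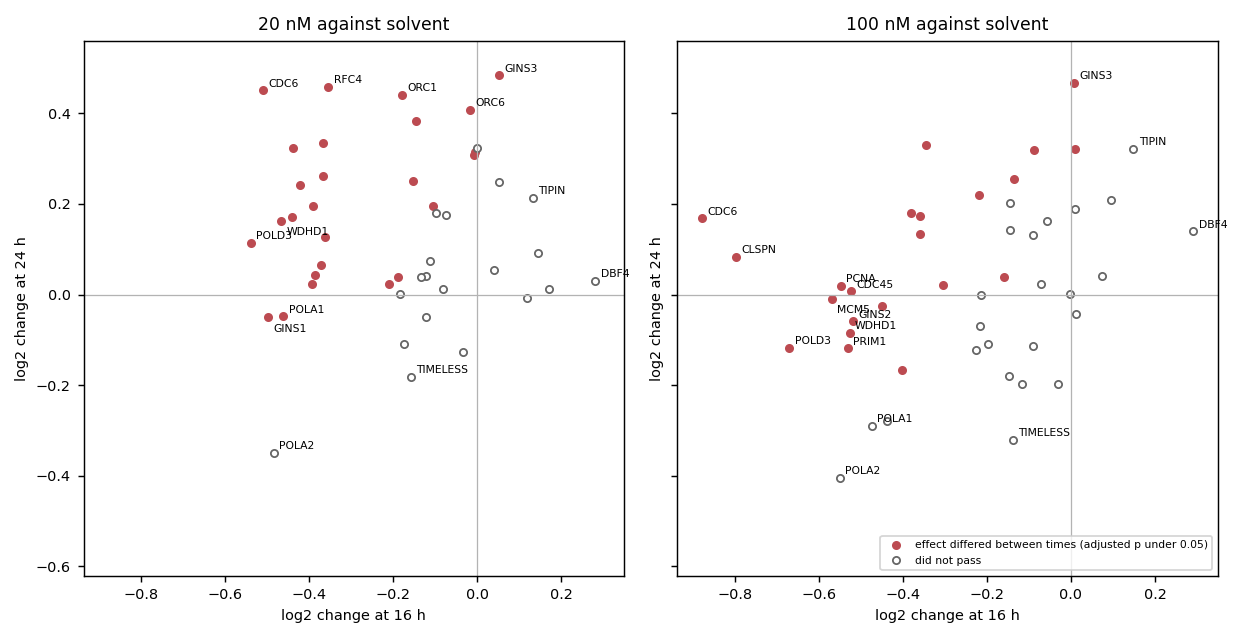
Log2 change against solvent at 16 h (horizontal) and at 24 h (vertical) for each of the 46 members, at 20 nM (left) and 100 nM (right); filled points are members whose effect differed between the times at adjusted p under 0.05 (26 at 20 nM, 22 at 100 nM). Filled points have a higher value at 24 h than at 16 h, with CDC6 and CLSPN far to the left at 100 nM, GINS3 at the top, and POLA2 low at both times.

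The doses were also set against each other at each time. At 16 h, 1 member differed, CLSPN, with 23.4 and 23.8 FPKM at 100 nM against 30.1 and 30.9 FPKM at 20 nM (log2 change -0.36 ± 0.04, adjusted p = 0.0152), against 0.32% of tested genes called, 0.275% lower and 0.0446% higher. No member was higher, and at an unadjusted p under 0.05 (limma) 10 members were lower and 0 higher, with no count over all tested genes. CDC6 (log2 change -0.37 ± 0.06, adjusted p = 0.0651) and MCM2 (log2 change -0.25 ± 0.05, adjusted p = 0.0768) came next and did not pass. The CLSPN call was lost without library 1, 2, 3 or 4 (adjusted p 0.0846 to 0.14). At 24 h, 6 members were lower at 100 nM than at 20 nM and 0 higher, against 4.88% of tested genes called, 3.06% lower and 1.82% higher. At an unadjusted p under 0.05 (limma), 20 members were lower and 0 higher, again with no count over all tested genes. RFC4 had 111 and 115 FPKM at 100 nM against 147 and 137 FPKM at 20 nM (log2 change -0.33 ± 0.05, adjusted p = 0.0115), and PRIM1 (-0.29), CDC6 (-0.28), CLSPN (-0.24), PCNA (-0.22) and MCM6 (-0.19) were lower as well. RFC4 and PRIM1 kept the call under the 3 scalings, and none of the 6 was called without library 9 or 10. RFC4 was lost without library 9 or 10 (adjusted p 0.0601 to 0.0941) and PRIM1 without library 8, 9 or 10 (adjusted p 0.0968 to 0.12). CDC6 was lost without library 7, 8, 9 or 10 (adjusted p 0.0889 to 0.181) and CLSPN without library 8, 9 or 10 (adjusted p 0.0908 to 0.117). PCNA was lost without library 9 or 10 (adjusted p 0.124 to 0.132) and MCM6 without library 8, 9 or 10 (adjusted p 0.0955 to 0.17). GMNN and MCM7 did not pass, with 95% confidence intervals of the log2 difference between the doses at 24 h of -0.09 to 0.09 and -0.08 to 0.08.

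**Figure D4:**
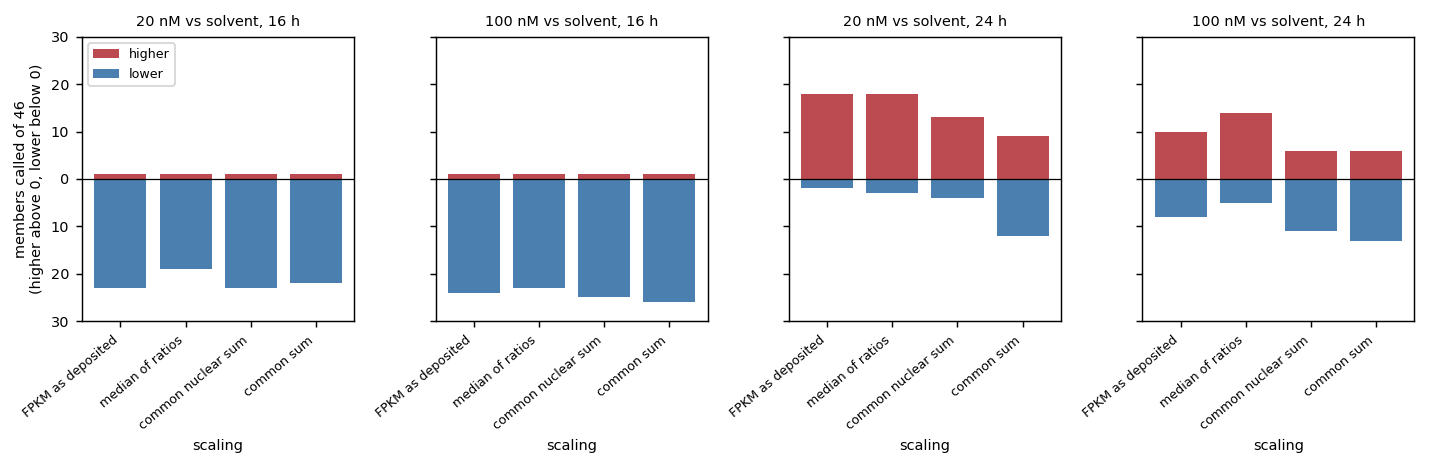
Number of the 46 members called higher (red, above 0) and lower (blue, below 0) against solvent in 4 comparisons (panels) under 4 scalings (bars). The 16 h panels keep 19 to 26 lower calls and 1 higher call under each scaling. At 24 h the 20 nM split goes from 18 higher and 2 lower as deposited to 9 higher and 12 lower under a common sum. The 100 nM split at 24 h goes from 10 and 8 to 6 and 13. Of all genes called at 24 h under a common sum, 10.8% were higher at 20 nM and 23.5% at 100 nM.

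Few members differed between the solvent groups. In solvent cells, 24 h against 16 h, 2 members fell and 0 rose, against 5.62% of tested genes called, 2.47% lower and 3.14% higher. At an unadjusted p under 0.05 (limma), 8 were lower and 3 higher, with no count over all tested genes. GINS4 had 25.2 and 25.2 FPKM at 24 h against 33.5 and 36.8 FPKM at 16 h (log2 change -0.46 ± 0.09, adjusted p = 0.028). RFC2 had 71.9 and 76.9 FPKM at 24 h against 89.1 and 86.2 FPKM at 16 h (log2 change -0.23 ± 0.05, adjusted p = 0.0315). The GINS4 call was lost without library 5, 6, 11 or 12 (adjusted p 0.0999 to 0.142) and the RFC2 call without library 5, 6, 11 or 12 (adjusted p 0.0866 to 0.16). RFC1 (log2 change 0.33 ± 0.09, adjusted p = 0.0675) and MCM10 (log2 change 0.27 ± 0.07, adjusted p = 0.0624) had the largest positive values and did not pass. GINS4 shares 1159 exon bases with an antisense gene, AC009630.2, that averaged 6.79 FPKM.

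In all, 11 members passed in none of the 4 comparisons with solvent as deposited: MCM4, ORC2, ORC3, ORC4, GINS4, CDC7, RFC1, RPA3, POLD1, POLD2 and POLE2. The share of all tested genes that passed in none was not counted, so the 11 cannot be set against a background. POLD2 passed as lower at 20 nM and 24 h under the 3 other scalings. Among the 11 are low genes such as ORC2 and CDC7 and high ones such as POLD2 and MCM4, a helicase subunit. MCM4 had 152 and 202 FPKM at 20 nM and 24 h, a wide spread between duplicates, against 161 and 179 FPKM in solvent cells (log2 change 0.04, 95% confidence interval -0.24 to 0.33). POLE2, the second subunit of polymerase epsilon, had 23.1 and 20.6 FPKM at 100 nM and 16 h, against 23.7 and 21.0 FPKM in solvent cells (log2 change -0.03, 95% confidence interval -0.20 to 0.14).

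A further list of 32 replication factors outside the 46, such as chromatin assembly, origin firing and alternative clamp loader genes, was counted in the same fit. At 16 h, 10 fell and 1 rose with 20 nM (34.4% called, against 17.7% of all tested genes), and 13 fell and 2 rose with 100 nM (46.9%, against 23.8%). At 24 h the counts lay near or below the share of all tested genes: 8 rose and 3 fell with 20 nM (34.4%, against 28.8%), and 4 rose and 5 fell with 100 nM (28.1%, against 33.8%). TOPBP1, which helps CDC45 join the helicase and activates ATR, had the lowest change at 16 h (-0.68 at 20 nM and -1.02 at 100 nM) and was still lower at 24 h and 100 nM (-0.33). DBF4B, a relative of DBF4 that also activates CDC7, rose at 16 h (0.29 and 0.48). DTL, an adaptor of the ubiquitin ligase that destroys CDT1 on PCNA, had 24.5 and 23.6 FPKM at 100 nM and 16 h, against 40.3 and 38.8 FPKM in solvent cells (log2 change -0.69), and 64.2 and 76.9 FPKM at 20 nM and 24 h, against 50.4 and 51.3 FPKM (log2 change 0.46). TICRR, which recruits TOPBP1 at origins, fell in each of the 4 comparisons (-0.36 and -0.25 at 16 h, -0.32 and -0.40 at 24 h). Its call at 100 nM and 16 h was near the threshold (limma, adjusted p = 0.0431). Whether calls of these 32 factors held under other scalings or without single libraries was not examined. The change of effect between times was called higher for 11 and lower for 1 of the 32 at 20 nM, and higher for 8 and lower for 1 at 100 nM; the lower one was DBF4B at both doses. That is 37.5% called at 20 nM and 28.1% at 100 nM, against 11.5% and 10.2% of all tested genes. E2F letters stood in the promoters of 5 of 25 of these factors (20%), against 6.98% of the tested genes.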

How the data were processed

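RNA was measured in 12 libraries of HCT116 cells, 2 in each of 6 groups. Per the labels' protocols, libraries were made from poly(A) RNA with a directional kit and read as pairs. The authors deposited FPKM values per gene, made with RSEM 1.2.28 on the build GRCh38, per the submitters' processing notes. Which aligner, gene annotation and strand option they chose is not given in the sources used here. Gene symbols came from GENCODE 29 (57836 of 58174 identifiers matched, 338 did not), and promoters from RefSeq.

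Values were tested as log2(FPKM + 1) with limma 3.58.1 in R 4.3.3, since FPKM are not counts; the scale understates changes of low genes. The 6 group means were fitted over all 12 libraries with an intensity trend (6 residual and 2.98 prior degrees of freedom), for genes with at least 1 FPKM in at least 2 libraries. Tests were two-sided, with Benjamini-Hochberg adjustment over 13458 genes and a threshold of 0.05. Python 3.11.15, pandas 2.3.3 and matplotlib 3.10.9 were used for tables and figures, and the fit was tested on simulated data.

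The depth was read from steps of single fragments in low values of 201 to 576 genes per library. Of these values 87.8% to 92.2% came out within 0.2 of a whole fragment, at the depth and fragment length with the closest agreement. Without steps, 40.0% would be reached at a depth fixed beforehand, so the shares are no test of the steps. No count test was run.

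The members and lists were chosen with earlier results of these data known. Named genes are, in each comparison with solvent, the called member with the largest change in each role, members called against the majority, members called in all or none of the comparisons, and the 3 largest changes in the other comparisons. Other members are named to complete a role. Alternatives were other pseudocounts, filters, scalings and priors, fits of a single time point and fits without each library. The common nuclear sum was added after the data had been seen.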

Additional observations from a re-analysis of the deposited data

Results flagged for a closer look

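Each value here is the change of a dose's effect between the times, 24 h minus 16 h on the log2 scale, that passed at an adjusted p under 0.05 (limma, Benjamini-Hochberg over all tested genes), so the effect of the drug on that gene differed between 16 h and 24 h. All are positive, and the doses share solvent libraries. Each value also takes in the change in solvent cells, where RFC2 was called lower at 24 h than at 16 h.

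At 20 nM, 26 members differed. Among the MCM genes the values were 0.59 for MCM5, 0.42 for MCM6, 0.40 for MCM10, 0.30 for MCM2 and 0.23 for MCM3. For origin recognition and licensing they were 0.96 for CDC6, 0.62 for ORC1, 0.42 for ORC6, 0.32 for GMNN and 0.32 for CDT1. The helicase activators had 0.63 for CDC45, 0.45 for GINS1, 0.44 for GINS2 and 0.43 for GINS3. The clamp and its loader had 0.66 for PCNA, 0.81 for RFC4, 0.70 for RFC2, 0.53 for RFC3 and 0.43 for RFC5. The others were 0.76 for CLSPN, 0.65 for POLD3, 0.63 for WDHD1, 0.61 for PRIM1, 0.49 for FEN1, 0.41 for POLA1 and 0.23 for RPA1. The call was lost for MCM2 without library 1, 2, 6 or 12 (adjusted p 0.0698 to 0.0755) and MCM3 without library 1, 2, 5 or 11 (adjusted p 0.0771 to 0.0882). A loss also came for MCM10 without library 1, 5, 6, 7, 8, 11 or 12 (adjusted p 0.0537 to 0.113) and CDT1 without library 1, 2, 5, 8, 11 or 12 (adjusted p 0.0789 to 0.108). Likewise lost were the calls for GINS1 without library 2, 5, 6, 7, 11 or 12 (adjusted p 0.0546 to 0.0893) and GINS3 without library 1, 2, 5, 11 or 12 (adjusted p 0.0564 to 0.0703). The same held for RPA1 without library 1, 2, 5, 6, 7, 8, 11 or 12 (adjusted p 0.0608 to 0.135) and POLA1 without library 1, 2, 5, 11 or 12 (adjusted p 0.0524 to 0.0696). Under a common sum 9 of the 26 did not pass, with adjusted p of 0.0761 to 0.706: MCM2, MCM3, MCM10, CDT1, GMNN (0.135), GINS1, GINS3, RPA1 and POLA1. Of these, MCM2, MCM3, MCM10, CDT1 and RPA1 did not pass under a common nuclear sum either, and MCM10, CDT1 and RPA1 did not under median-of-ratios scaling.

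At 100 nM, 22 members differed. In the MCM helicase the values were 0.56 for MCM5, 0.53 for MCM2, 0.24 for MCM6 and 0.20 for MCM7. For origin recognition and licensing they were 1.05 for CDC6, 0.68 for ORC1, 0.44 for CDT1, 0.41 for GMNN and 0.31 for ORC6. The helicase activators had 0.53 for CDC45, 0.46 for GINS3 and 0.46 for GINS2. The clamp and its loader had 0.57 for PCNA, 0.56 for RFC2, 0.49 for RFC4, 0.39 for RFC3 and 0.33 for RFC5. The others were 0.88 for CLSPN, 0.55 for POLD3, 0.44 for WDHD1, 0.42 for FEN1 and 0.41 for PRIM1. Calls were lost for MCM6 without library 3, 4, 5, 6, 9, 10, 11 or 12 (adjusted p 0.0551 to 0.092) and MCM7 without library 4, 5, 6, 9, 10, 11 or 12 (adjusted p 0.0698 to 0.122). The call was lost for CDT1 without library 10 (adjusted p = 0.0507) and GINS3 without library 3, 5, 9, 11 or 12 (adjusted p 0.0527 to 0.0661). A loss also came for RFC5 without library 5, 9 or 12 (adjusted p 0.0583 to 0.0634) and WDHD1 without library 3, 6, 10 or 12 (adjusted p 0.0524 to 0.0675). Under a common sum MCM6 and MCM7 did not pass (adjusted p = 0.0688 and 0.168), nor under a common nuclear sum (adjusted p = 0.084 and 0.108).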

How the results depend on the processing

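Pseudocounts of 0.1 and 0.5 changed no call of a member. Under a common sum, 20 of 46 values at 20 nM and 24 h changed sign, 6 of them with a call in either fit: MCM6 was at -0.16, RFC5 at -0.14, MCM3 at -0.15, RPA1 at -0.16, MCM7 at -0.15 and PRIM1 at -0.014. Without single libraries, 9 to 11 of 18 members were called at 100 nM and 24 h.

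Between the doses at 16 h, the 1 call became 2 under a common nuclear sum, 0 with the time point alone (limma; at an unadjusted p under 0.05, 9 lower and 0 higher) and 0 without any 1 library. Between the doses at 24 h, the 6 calls became 10 with a filter of 5 FPKM, 2 under a common sum, 3 with a constant prior and 0 with the time point alone (limma; at an unadjusted p under 0.05, 19 lower and 1 higher). Without single libraries there were 0 to 9, with 0 without library 9 or 10, 2 without library 8 and 9 without library 7. In solvent cells over time, the 2 calls became 0 without a filter (limma; at an unadjusted p under 0.05, 9 lower and 3 higher), 5 with a filter of 5 FPKM, 4 under a common sum, 5 under median-of-ratios scaling, 1 with a constant prior, 5 under a common nuclear sum and 0 without any 1 library. The cause was not tested. Counts at an unadjusted p given here also lack a share of all tested genes. Where a library was left out, the lone library of its group was assumed to vary like the other groups.

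No paired analysis was possible because the table's columns carry a library number and not the sample number of the labels. With 2 libraries a group, changes smaller than about the spread of these pairs were not detectable.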
